A study of Mus musculus with 23 samples.

Results

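The genes described here are titin, nebulin and 7 genes of the Z-disc, the structure that anchors the thin filaments at each end of a muscle sarcomere. They are Ttn, Neb, Actn2, Actn3, Ldb3, Myoz1, Myoz2, Myot and Ankrd2, 9 of the 19057 genes that the platform annotation names, and they were taken by name, with every probe that the annotation gives them. That is 31 of the 45281 probes on the array, with 12 probes for Ttn, 6 for Ldb3, 3 each for Actn2 and Actn3, 2 each for Myoz2 and Myot, and 1 each for Neb, Myoz1 and Ankrd2. None of the 9 genes lies on mouse chromosome 16, which carries the altered interval.

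Gene expression was read in total RNA of gastrocnemius muscle, with 1 array per mouse and 23 arrays in all. Ts3Yah mice (6 arrays) carry a duplication of the interval from Hspa13 to App on 1 copy of chromosome 16, and their diploid littermates (5 arrays) carry the unaltered chromosomes. Ms3Yah mice (6 arrays) carry the reciprocal deletion, also on 1 copy, and were compared with their own diploid littermates (6 arrays). The labels give C57BL6/J as the strain of all mice and write Ts2Yah for the trisomic ones. Both alleles were made by Cre/loxP recombination in Hprt-deficient embryonic stem cells and bred onto C57BL/6J, each line carries 1 engineered allele, and the altered interval is inherited and so not limited to muscle. Age and sex of the array mice are not in the labels. Xist, an RNA of females, was detected in some but not all mice of every group, as given further on. The comparison within a line asks whether a changed dose of the interval goes with a changed RNA level of these structural genes.

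Titin is a giant elastic protein that runs from the Z-disc to the M-band and gives muscle its passive tension, and nebulin lies along the thin filament and bears on its length. At the Z-disc the alpha-actinins, Actn2 in all fibres and Actn3 in fast fibres, cross-link the thin filaments of neighbouring sarcomeres. Ldb3, a PDZ and LIM domain protein, myotilin (Myot) and the calsarcins Myoz1 and Myoz2 bind alpha-actinin, and the calsarcins also bind the phosphatase calcineurin. Myoz1 belongs mainly to fast fibres and Myoz2 to slow fibres and heart. Ankrd2 is an ankyrin repeat protein that binds titin, is found mainly in slow muscle and responds to stretch.

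The promoters of Actn2, Myoz2 and Ankrd2 are shown because these 3 genes varied together over the mice, as described further on. RefSeq (GRCm38.p6) gave a promoter window for 5 of the 9 members. Printed are the bases up to 250 upstream of the start that the window uses, 5′ to 3′ on the strand of the gene, without bases inside the RefSeq span of the gene. For Myoz2 and Ankrd2 that span begins 16 and 110 bases upstream of the start of the window, and these bases were left out. Capitals mark E-boxes (CANNTG, on either strand), the motif of basic helix-loop-helix factors such as MyoD, and the MEF2 site, bound by a family of muscle transcription factors.
Actn2 (chr13:12340733-12340982, minus strand): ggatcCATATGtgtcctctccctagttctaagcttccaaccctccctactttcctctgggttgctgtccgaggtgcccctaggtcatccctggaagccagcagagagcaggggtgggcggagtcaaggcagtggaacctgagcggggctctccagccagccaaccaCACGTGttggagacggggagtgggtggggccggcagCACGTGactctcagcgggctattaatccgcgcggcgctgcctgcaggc
Myoz2 (chr3:123035004-123035237, minus strand): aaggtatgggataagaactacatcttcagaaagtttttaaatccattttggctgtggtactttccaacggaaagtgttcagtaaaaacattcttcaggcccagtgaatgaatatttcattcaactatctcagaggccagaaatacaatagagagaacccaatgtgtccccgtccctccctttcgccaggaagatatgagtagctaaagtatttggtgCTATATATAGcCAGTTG
Ankrd2 (chr19:42035777-42035916, plus strand): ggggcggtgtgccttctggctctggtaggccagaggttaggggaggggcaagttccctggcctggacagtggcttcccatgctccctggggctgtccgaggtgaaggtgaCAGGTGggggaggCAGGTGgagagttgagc
In the whole windows of 250 bases Actn2 held 3 E-boxes, Myoz2 2 and Ankrd2 3, of which 1 of Myoz2 and 1 of Ankrd2 lie in the part not printed, and 66.2% of all 32851 windows of that length held at least 1. Myoz2 alone of these 3 held a MEF2 site, from 33 to 24 bases upstream of the start and without overlap with an E-box, as did 2.92% of all windows. Ankrd2 held TATAAA at 29 bases upstream, in the part not printed and so inside the RefSeq span of the gene. Of all windows, 12.4% held it on either strand. CATTCC, the M-CAT motif, was in none of the 3 windows and in 12.6% of all. A match is a description of the letters.

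No gene of the group passed the test in either line. Of the 31 probes, 0 had an adjusted p under 0.05 in Ts3Yah or in Ms3Yah (limma, two-sided, Benjamini-Hochberg over all expressed probes), where 0.00455% of all 43917 probes tested did so in Ts3Yah and 0.018% of 44363 did so in Ms3Yah. All 31 member probes had passed the filter on low values in both lines, which asks for a normalised signal above 89.7 in 1 mouse of the line or more. At an unadjusted p under 0.05, 6 of the 31 probes stood out in Ts3Yah, against 5.57% of all probes, and 2 of the 31 in Ms3Yah, against 5.16%. Leaving out single mice moved both counts. The Ts3Yah count fell to 3 without mouse 34498 or 34662. No mouse left out lowered the Ms3Yah count. That count was 6 without the diploid mouse 37094, 5 without 37074 or the diploid 37075, and 4 without the diploid 37145. The 6 were 4 probes of Ttn and the probe of Neb, all with a higher mean in Ts3Yah (2.75% of all probes), and 1 probe of Actn2 with a lower mean (2.81% of all). The 2 were a probe of Actn2 with a higher mean in Ms3Yah (2.71% of all) and a probe of Actn3 with a lower mean (2.45% of all). Of the 4 Ttn probes, 3 varied together over the mice, as given further on, so these are not counts of separate events. With the brightest probe of each gene alone, 1 of 9 stood out in Ts3Yah (Neb) and 1 of 9 in Ms3Yah (Actn2), where 6.42% and 6% of all genes did. The median log2 change over the 9 brightest probes was -0.076 in Ts3Yah and 0.037 in Ms3Yah, beside -0.0012 and -0.0014 over all genes. Aneuploid mice overlapped with their littermates on all 31 probes in both lines, while 0.537% of all probes separated the groups in Ts3Yah and 0.284% in Ms3Yah.

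A signal is given here as the quantile normalised probe signal on a linear scale, in arbitrary units, with its SD over mice. A log2 change is the difference of mean log2 signals, aneuploid minus diploid, with its SE from limma. Signals of different probes depend on the probe and were not compared as amounts of RNA. The RNA came from whole muscle, so fewer cells of a type and less RNA per cell cannot be told apart. Of the fast fibre markers, 8 of 8 measured genes were detected on all 23 arrays, and of the heart markers Nppa was detected on 0 arrays, Tnni3 on 2 and Myh6 on 23.

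**Figure D1:**
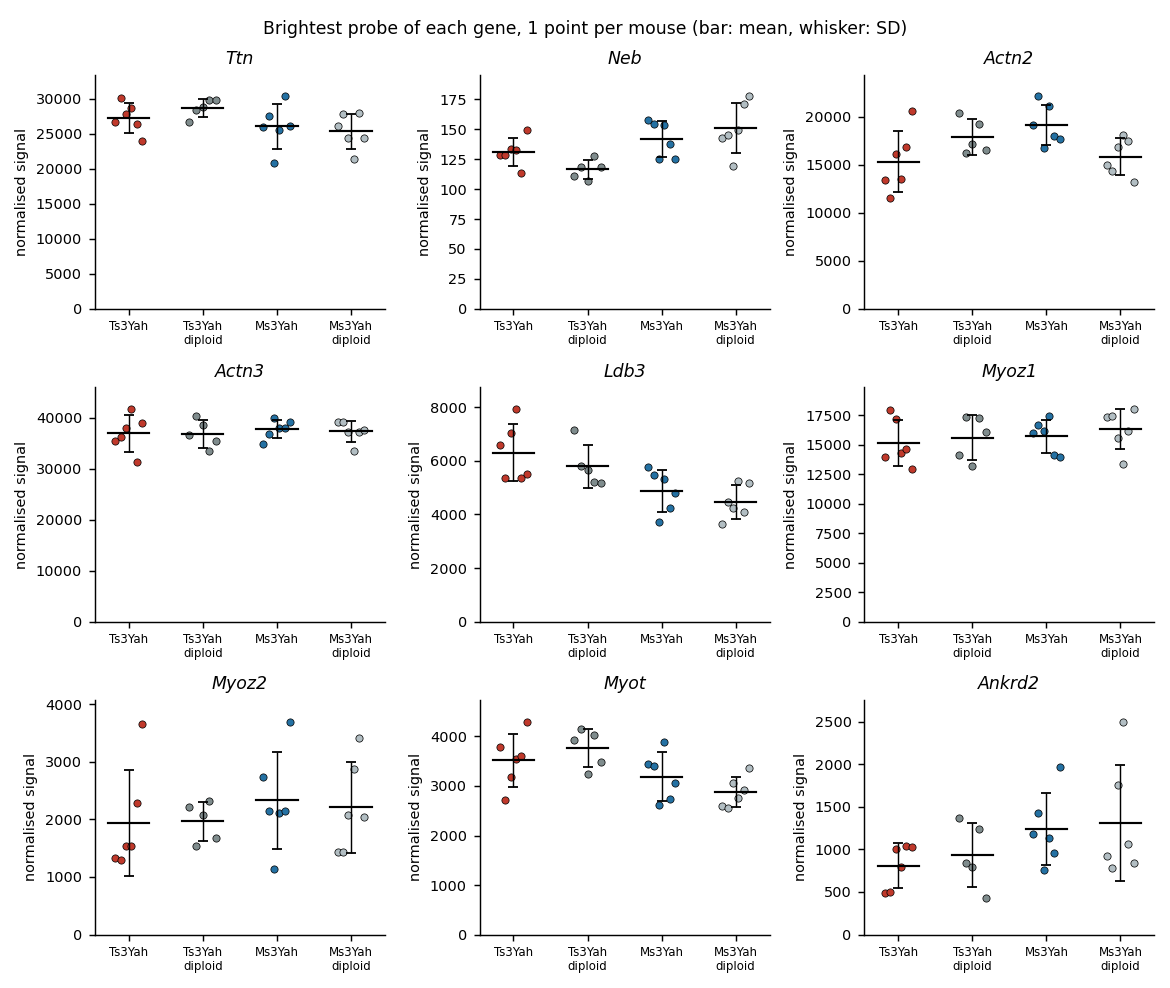
Normalised signal (y axis, arbitrary units, linear from 0) of the brightest probe of each of the 9 genes in the 4 groups (x axis), with 1 point per mouse, the mean as a bar and the SD as a whisker. Aneuploid and diploid mice of a line overlap for every gene, and the points of Myoz2 and Ankrd2 are spread most widely relative to their means.

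The 12 probes of Ttn did not behave as 1. The brightest, ILMN_3128792, overlapped between all groups. Its signal ran from 23921 to 30113 in Ts3Yah, with a median of 27189, and the 5 diploid littermates had 26624, 28345, 28849, 29729 and 29729. In Ms3Yah it ran from 20734 to 30389 with a median of 26006, and in their littermates from 21337 to 27991 with a median of 25229. The log2 change was -0.076 ± 0.054 in Ts3Yah (95% interval of -0.19 to 0.042) and 0.037 ± 0.086 in Ms3Yah (95% interval of -0.15 to 0.22), with adjusted p of 0.932 and 0.997 in limma.

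A set of 3 dimmer Ttn probes varied widely between mice. ILMN_1223811 was the brightest of them, and its signal spanned 10.4-fold over the 23 mice, whereas ILMN_3128792 spanned 1.47-fold. In Ts3Yah it ran from 2323 to 6237 with a median of 4442, and the diploid littermates had 1119, 1615, 2061, 2872 and 3352. The 3 highest Ts3Yah mice lay above every littermate and the other 3 lay among them, and 6 of 6 stood above the mean log2 signal of the littermates. The mean signal was 4281 ± 1731 (SD, n = 6) against 2204 ± 910 (SD, n = 5), a ratio of 1.94, and the log2 change was 0.96 ± 0.32 (limma, unadjusted p of 0.0114, adjusted p of 0.852). In Ms3Yah the signal ran from 6111 to 11638 with a median of 10160, and in the diploid littermates from 3552 to 10143 with a median of 6975. There the log2 change was 0.53 ± 0.25 (limma, unadjusted p of 0.0546, adjusted p of 0.973). The estimate thus had the same sign in the trisomic and the monosomic line, and the test of the difference between the lines gave 0.43 ± 0.44 (limma, adjusted p of 0.967).

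The other probes of this set, ILMN_1231542 and ILMN_2443220, had a lower signal and a like pattern. ILMN_1231542 ran from 157 to 305 in Ts3Yah with a median of 228, and the littermates had 122, 135, 148, 168 and 209. Its log2 change was 0.52 ± 0.20 (limma, unadjusted p of 0.0224, adjusted p of 0.859). ILMN_2443220 ran from 159 to 291 with a median of 202, and the littermates had 120, 152, 159, 185 and 185, a log2 change of 0.41 ± 0.17 (limma, unadjusted p of 0.0352, adjusted p of 0.883). The same 3 Ts3Yah mice, 34498, 34662 and 34730, were the highest on all 3 probes. In Ms3Yah the log2 changes were 0.31 ± 0.23 and 0.35 ± 0.22, with adjusted p of 0.989 and 0.987 in limma.

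After the group means were subtracted, ILMN_1223811 correlated over the 23 mice with ILMN_1231542 at a Pearson r of 0.924 and with ILMN_2443220 at 0.925, but with the brightest Ttn probe at -0.0533. In the 11 mice of the Ts3Yah line the first of these values was 0.942, and for the 12 mice of the other line it was 0.941. These are descriptions over arrays normalised together. The genes most like ILMN_1223811 in this measure were Nipbl, a loader of cohesin (r = 0.943), and Map4, a microtubule-associated protein (r = 0.929).

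**Figure D2:**
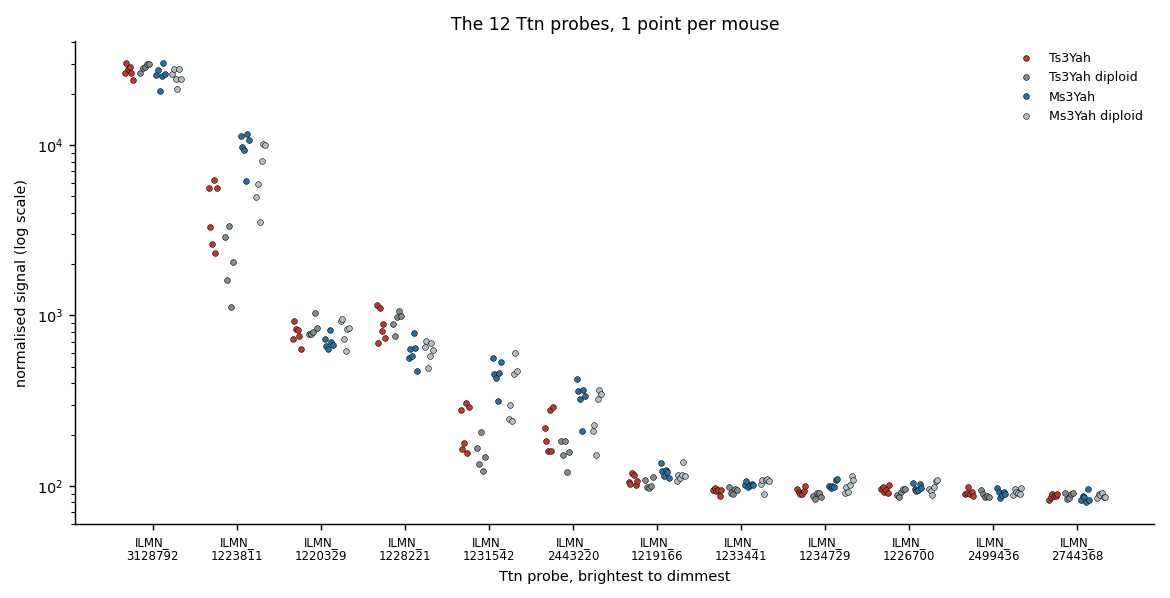
Normalised signal (y axis, log scale, arbitrary units) of the 12 Ttn probes ordered from the brightest to the dimmest (x axis), with 1 point per mouse in the 4 groups. ILMN_3128792 holds a narrow band, ILMN_1223811 spreads from 1119 to 11638, and the 6 dimmest probes lie together close to background.

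The signal of these 3 Ttn probes also moved with Xist, the RNA that coats the inactive X chromosome of females. Xist signal ran from 84.4 to 801 in Ts3Yah, 85.1 to 552 in their littermates, 88.1 to 1200 in Ms3Yah and 85.7 to 943 in theirs, and Xist was detected in 4 of 6, 2 of 5, 3 of 6 and 3 of 6 of these mice. With log2 Xist signal as a term in a fit of the 4 groups, the slope was 0.25 ± 0.048 log2 units per log2 unit of Xist for ILMN_1223811 (limma, adjusted p of 0.00338), 0.20 ± 0.033 for ILMN_1231542 (adjusted p of 0.000861) and 0.17 ± 0.034 for ILMN_2443220 (adjusted p of 0.00591). Across all probes 2.68% passed this test and 4 of the 31 member probes did, the other being that of Myoz1, with the opposite sign. Myoz2 ILMN_1234857 had a slope of 0.18 ± 0.053 and did not pass (limma, adjusted p of 0.071). The brightest Ttn probe had a slope of -0.0051 ± 0.018 (limma, adjusted p of 0.959). With Xist in the fit of the Ts3Yah line, the log2 change of ILMN_1223811 was 0.67 in place of 0.96, that of ILMN_1231542 0.33 in place of 0.52, and that of ILMN_2443220 0.26 in place of 0.41. Every group held mice with and without detected Xist, so a slope also sets these mice against each other. Such a slope cannot be read as a response to the dose of Xist. The part of Xist in the Ttn differences was not tested beyond these fits.

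The remaining 8 Ttn probes were a pair of moderate signal and 6 dim ones. ILMN_1220329 had mean signals of 782 ± 97.7 in Ts3Yah, 850 ± 109 in the littermates, 702 ± 65.1 in Ms3Yah and 817 ± 125 in theirs, and it correlated with the brightest probe over the mice (r = 0.652). Its log2 change was -0.12 ± 0.094 in Ts3Yah and -0.21 ± 0.10 in Ms3Yah (limma, unadjusted p of 0.227 and 0.0514, adjusted p of 0.941 and 0.968). ILMN_1228221 had 898 ± 191 and 933 ± 115 in Ts3Yah and its littermates, and 614 ± 107 and 625.3 ± 78.2 in Ms3Yah and its littermates. The other 6 probes had mean signals between 87.3 and 113 over all mice, close to background, and were detected on 21, 13, 9, 8, 1 and 0 of the 23 arrays. Among them ILMN_1234729, which the annotation ties to a cDNA clone and not to a RefSeq transcript, had a log2 change of 0.082 ± 0.037 in Ts3Yah (limma, unadjusted p of 0.047, adjusted p of 0.894), at signals from 89.2 to 99.4 in Ts3Yah and of 83.8, 86.6, 87.1, 91.4 and 91.4 in the littermates. It was detected in 1 of 6 Ts3Yah mice and 0 of 5 littermates.

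Neb was read by a single dim probe, ILMN_1235161. Its signal ran from 114 to 149 in Ts3Yah, with a median of 130, and the 5 diploid littermates had 106.6, 110.9, 118.2, 118.5 and 127.9. The probe was detected on all 23 arrays, and 5 of 6 Ts3Yah mice lay above the mean log2 signal of the littermates. The log2 change was 0.17 ± 0.064 (limma, unadjusted p of 0.021, adjusted p of 0.857). In Ms3Yah the signal ran from 125 to 158 with a median of 145, and in the littermates from 119 to 178 with a median of 147, a log2 change of -0.083 ± 0.095 (limma, adjusted p of 0.992). The level of Neb rests on that dim probe alone.

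Actn2 had estimates of opposite sign in the lines, on both of its bright probes. On ILMN_2764727 the Ts3Yah signal ran from 11540 to 20553 with a median of 14813, and the diploid littermates had 16176, 16479, 17115, 19281 and 20404. In Ms3Yah it ran from 16721 to 22170 with a median of 18535, and in the littermates from 13247 to 18076 with a median of 15871. All 6 Ms3Yah mice stood above the mean of their littermates, and 5 of 6 Ts3Yah mice stood below theirs, the exception being mouse 34730 at 20553. In Ts3Yah the log2 change was -0.24 ± 0.13 (limma, unadjusted p of 0.0751, adjusted p of 0.904) and in Ms3Yah 0.28 ± 0.088 (unadjusted p of 0.00771, adjusted p of 0.844). ILMN_2797061 ran from 5987 to 11218 in Ts3Yah with a median of 8023, and the littermates had 8543, 8850, 9504, 11218 and 11405. Its log2 change was -0.32 ± 0.14 in Ts3Yah (limma, unadjusted p of 0.0432, adjusted p of 0.892) and 0.21 ± 0.10 in Ms3Yah (unadjusted p of 0.0631, adjusted p of 0.979).

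The difference between the lines was -0.52 ± 0.16 on the first Actn2 probe (limma, unadjusted p of 0.00387, adjusted p of 0.533) and -0.53 ± 0.19 on the second (unadjusted p of 0.00924, adjusted p of 0.703), neither of which passed the test. Both probes are annotated to the same gene and correlated over the mice (r = 0.916). Over the 31 member probes, 0 passed the test of this difference, against 0.0278% of all probes, and 3 had an unadjusted p under 0.05, against 5.74% of all. With the brightest probes alone, 1 of 9 did, against 6.47% of all genes. The third Actn2 probe, ILMN_1258081, belongs to a cDNA clone and lay between 97.8 and 200, with log2 changes of 0.047 ± 0.10 and -0.052 ± 0.13.

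Actn3 had a bright probe with like means in all groups, and another with a lower mean in Ms3Yah whose difference did not pass the adjusted threshold. ILMN_2747543 had mean signals of 36914 ± 3560 in Ts3Yah and 36867 ± 2707 in the littermates, and of 37792 ± 1813 in Ms3Yah and 37318 ± 2130 in the littermates, with log2 changes of -0.00077 ± 0.069 and 0.019 ± 0.044. On ILMN_3008110 the Ms3Yah mice ran from 22592 to 27213 with a median of 24156, and the littermates from 25275 to 34842 with a median of 28758. All 6 Ms3Yah mice lay below the mean log2 signal of the littermates, and mouse 37038 at 27213 overlapped with them. The log2 change was -0.25 ± 0.069 (limma, unadjusted p of 0.0029, adjusted p of 0.764), and in Ts3Yah, at 25877 to 29729 against 24850, 26135, 27753, 28849 and 29524, it was 0.024 ± 0.05. Between the lines this probe differed by 0.28 ± 0.089 (limma, unadjusted p of 0.0053, adjusted p of 0.595). ILMN_2708303 had log2 changes of 0.051 ± 0.16 and -0.15 ± 0.13. Over the 23 mice ILMN_2747543 correlated with ILMN_3008110 at r = -0.155 (-0.477 in the trisomic line and 0.129 in the monosomic line) and with ILMN_2708303 at 0.131. ILMN_3008110 correlated with ILMN_2708303 at r = 0.43 (0.1 in the trisomic and 0.71 in the monosomic line). The signal of ILMN_2747543 spanned only 1.34-fold over all mice. Its mean over all mice, 37238, lay near that of the bright fast fibre marker Tnni2, at 39054.5. Whether such high signals are compressed was not tested, so like means do not show that the RNA level was unchanged.

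**Figure D3:**
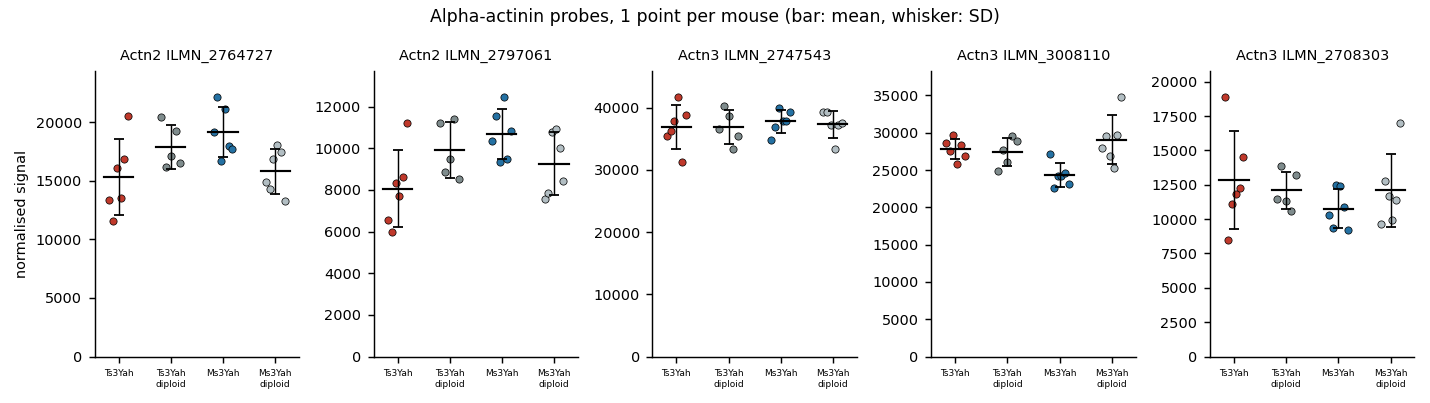
Normalised signal (y axis, linear from 0, arbitrary units) of the bright Actn2 probes and the 3 Actn3 probes in the 4 groups (x axis), with 1 point per mouse, the mean as a bar and the SD as a whisker. On both Actn2 probes the Ts3Yah mean lies below that of its littermates and the Ms3Yah mean above that of its own, and on Actn3 ILMN_3008110 the Ms3Yah mice lie between 22592 and 27213.

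Dimmer probes were then set against the brightest probe of the same gene in the same mouse. Of the 30 comparisons (15 probe pairs in each line, with the dimmer probe detected on at least 12 of 23 arrays), 0 had an adjusted p under 0.05 in the exact two-sided permutation test over mice, and 3 had an unadjusted p below that level. The smallest p that the mice allow is 0.00216. The largest shift was that of Ttn ILMN_1223811 against ILMN_3128792 in Ts3Yah, where the mean log2 ratio was -2.77 in Ts3Yah and -3.81 in the littermates, a shift of 1.03 (exact permutation p of 0.039, adjusted p of 0.325). In Ms3Yah the same pair shifted by 0.49 (exact permutation p of 0.0931, adjusted p of 0.325). The 2 others with an unadjusted p under 0.05 were both in Ms3Yah. Actn3 ILMN_3008110 shifted against ILMN_2747543 by -0.27 (exact permutation p of 0.0108, adjusted p of 0.325) and Ttn ILMN_1220329 against ILMN_3128792 by -0.25 (exact permutation p of 0.0303, adjusted p of 0.325). The bright Actn2 probes shifted against each other by -0.073 in Ts3Yah and -0.065 in Ms3Yah (exact permutation p of 0.126 and 0.34). A p that misses the threshold does not show that a pair of probes acts alike.

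**Figure D4:**
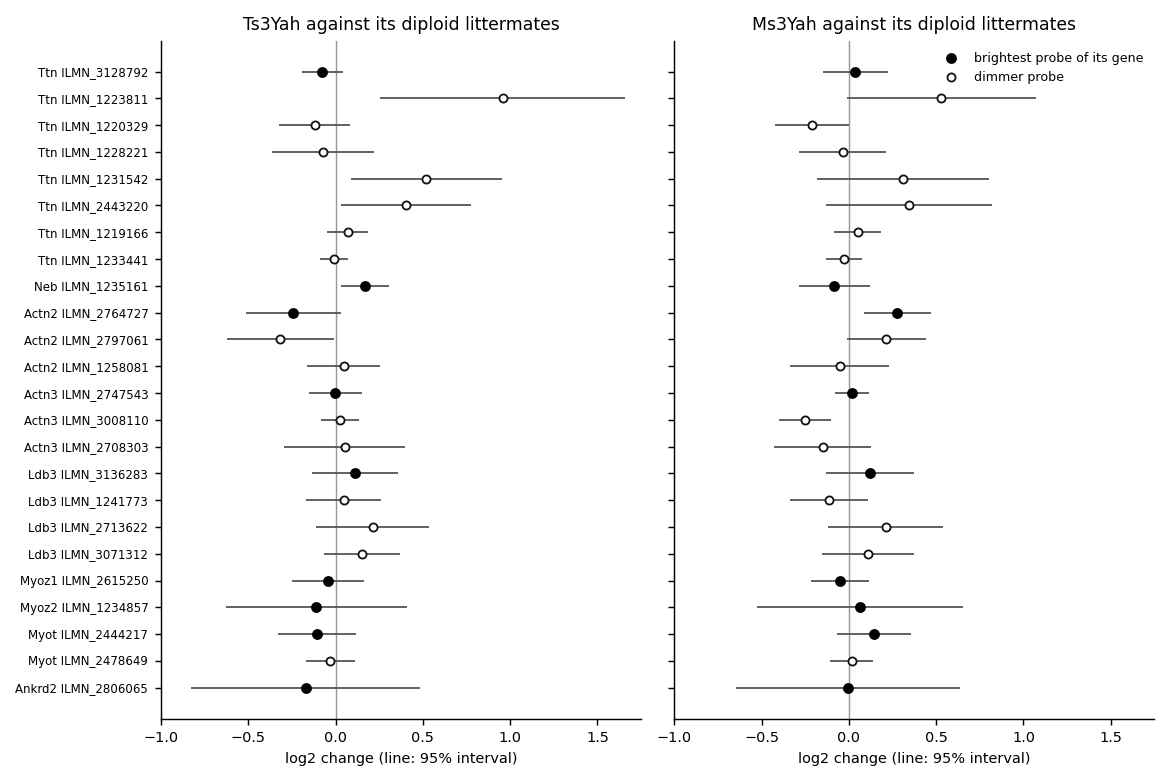
Log2 change with its 95% interval from limma (x axis) for the 24 member probes detected on at least 12 of 23 arrays (y axis), in Ts3Yah at the left and Ms3Yah at the right, with filled points for the brightest probe of a gene and open points for dimmer ones. Ttn ILMN_1223811 lies at 0.96 in Ts3Yah while the brightest Ttn probe lies at -0.076, and the bright Actn2 probes change sides between the panels.

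Ldb3 had 4 detected probes and a pair near background, detected on 3 and 5 arrays. ILMN_3136283, the brightest, ran from 5347 to 7938 in Ts3Yah with a median of 6044, and the diploid littermates had 5172, 5201, 5666, 5799 and 7138. In Ms3Yah it ran from 3706 to 5762 with a median of 5054, and in the littermates from 3634 to 5261 with a median of 4342. The estimates were 0.11 ± 0.11 in Ts3Yah and 0.12 ± 0.12 in Ms3Yah on the log2 scale (limma, adjusted p of 0.955 and 0.992). ILMN_1241773 had 0.046 ± 0.10 and -0.11 ± 0.10, ILMN_2713622 0.21 ± 0.15 and 0.21 ± 0.15, and ILMN_3071312 0.15 ± 0.10 and 0.11 ± 0.12, with groups that overlapped on all 4.

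Myot and Myoz1 gave small estimates beside the spread of the mice. Myot, on ILMN_2444217, ran from 2713 to 4301 in Ts3Yah with a median of 3575, and the littermates had 3250, 3479, 3921, 4036 and 4145. In Ms3Yah it ran from 2608 to 3895 with a median of 3230, and in the littermates from 2549 to 3361 with a median of 2842. Its log2 change was -0.11 ± 0.10 in Ts3Yah and 0.14 ± 0.10 in Ms3Yah, and that of the dim probe ILMN_2478649 was -0.03 ± 0.065 and 0.016 ± 0.057. Myoz1 ran from 12959 to 17947 in Ts3Yah with a median of 14497, and the littermates had 13183, 14142, 16079, 17319 and 17391. It ran from 13947 to 17465 with a median of 16080 in Ms3Yah, and from 13389 to 18076 with a median of 16784 in theirs, with log2 changes of -0.043 ± 0.10 and -0.053 ± 0.077. The slope of Myoz1 on Xist was -0.072 ± 0.015 log2 units per log2 unit (limma, adjusted p of 0.00667), a call that was lost with median scaling and with the second deposited table.

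Myoz2 and Ankrd2 varied widely between mice of a group. Myoz2, on ILMN_1234857, ran from 1292 to 3657 in Ts3Yah with a median of 1540, and the littermates had 1541, 1679, 2079, 2215 and 2318. In Ms3Yah it ran from 1137 to 3699 with a median of 2144, and in the littermates from 1433 to 3407 with a median of 2063. The log2 change was -0.11 ± 0.24 (95% interval of -0.63 to 0.41) in Ts3Yah and 0.063 ± 0.27 (95% interval of -0.53 to 0.66) in Ms3Yah. The highest mice were 37448 (3699), 34730 (3657) and 37145 (3407), from 3 different groups. The other Myoz2 probe, of a cDNA clone, lay near background and was detected on 6 of 23 arrays.

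Ankrd2 had signals from 486 to 1044 in Ts3Yah with a median of 898, and of 428, 790, 845, 1243 and 1372 in the littermates. In Ms3Yah it ran from 757 to 1967 with a median of 1160, and in the littermates from 778 to 2502 with a median of 994. The estimates were -0.17 ± 0.30 (95% interval of -0.83 to 0.48) and -0.0068 ± 0.30 (95% interval of -0.65 to 0.63) on the log2 scale. Its 5.84-fold span over the 23 mice was the widest among the 9 brightest probes.

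Myoz2 varied with the genes of slow fibres from mouse to mouse. After the group means were subtracted, the genes most like it were Myl2 (r = 0.899) and Myl3 (r = 0.893), light chains of slow myosin, over 23 mice. Within the 11 mice of the Ts3Yah line r with Myl2 was 0.909, and within the 12 of the other line it was 0.907. Myl2 was 31253 in mouse 34730, 27550 in 37448 and 20404 in 37145, the mice with the highest Myoz2, and lowest at 6168 in mouse 37072, which also had the lowest Myoz2 at 1137. Mouse 34725 had Myl2 at 23374, below 34730 and 37448 only, with Myoz2 at 2291. Summed signals of the 8 slow fibre markers ran from 29699 to 126512 in Ts3Yah, 44269 to 70612 in the littermates, 29707 to 112490 in Ms3Yah and 31102 to 86388 in theirs.

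Myoz1 ran the other way, with r of -0.596 against Myl2 and -0.524 against Myoz2. Against the fast fibre marker Myh4, r was 0.168 for Myoz1 (0.463 in the trisomic line and -0.172 in the monosomic line) and 0.153 for Myoz2. Myoz2 against Actn2 gave r of 0.672 over all mice, 0.907 in the trisomic line and 0.453 in the monosomic line. Ankrd2 against Actn2 gave 0.682 (0.753 and 0.613 in the same order) and Ankrd2 against Myoz2 0.651 (0.63 and 0.672). Actn2 against Myl2 gave 0.532 over all mice, 0.741 over the 11 mice of the trisomic line and 0.232 over the 12 of the monosomic line. Mouse 34730, the Ts3Yah mouse that departed from the others in Actn2, had the highest Myl2 of all. With each of the 11 mice left out in turn, the Actn2 log2 change in Ts3Yah ran from -0.33 to -0.17 on the brightest probe. On ILMN_2797061 it ran from -0.42 to -0.24. The lower ends were without mouse 34730 and the upper ends without mouse 34558. The part of slow fibre content in these values was not tested.

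For the other members the most similar genes were Csrp3 (r = 0.821) and Lmcd1 (0.796) for Ankrd2, Nme7 (0.876) and Atp1b1 (0.852) for Actn2, Gdf1 (0.89) and Hspb8 (0.874) for Myoz1, Sdhc (0.845) and Acad8 (0.807) for Myot, and Khk (0.82) and Araf (0.807) for Neb. Aph1a (0.779) and Tspan33 (0.777) were nearest to Ldb3, Vkorc1l1 (0.769) and Babam1 (0.751) to Actn3, and Desi2 (0.813) and Dcun1d4 (0.759) to the brightest Ttn probe. Csrp3 is a LIM protein of the Z-disc. All values are over 23 mice after subtraction of group means and describe these arrays only.

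**Figure D5:**
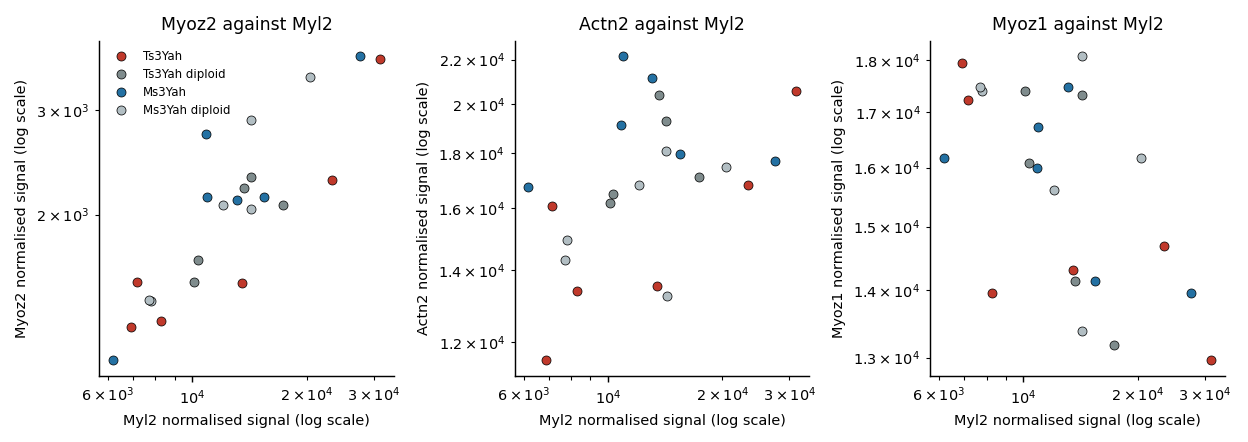
Normalised signal of Myoz2, Actn2 and Myoz1 (y axes, log scale, arbitrary units) against that of Myl2 in the same mouse (x axes, log scale), with 1 point per mouse in the 4 groups. High Myoz2 goes with high Myl2 in both lines, Actn2 follows less closely, and Myoz1 tends to be lower where Myl2 is high.

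Several member probes differed between the diploid littermates of the lines. Of the 31 probes, 6 passed the test (adjusted p under 0.05, limma), against 2.79% of all probes, 1 higher (1.55% of all) and 5 lower (1.24% of all) in the Ts3Yah littermates. At an unadjusted p under 0.05, 13 did, against 16.3% of all probes, and with the brightest probes alone 4 of 9 did, against 18.6% of all genes, with 1 of 9 past the adjusted threshold, against 3.28%. The labels give no litter, cohort or array batch, so a difference between the lines and one between such batches cannot be told apart here. Ttn ILMN_1223811 was lower in the Ts3Yah littermates, with a log2 difference of -1.70 ± 0.32 (limma, adjusted p of 0.00451), and so was ILMN_1231542, with -1.24 ± 0.24 (adjusted p of 0.00512). On both probes all 5 Ts3Yah littermates lay below all 6 Ms3Yah littermates, and 2.69% of all probes separated these groups in either direction. Ldb3 ILMN_2713622 differed by -0.73 ± 0.17 (limma, adjusted p of 0.0174), Neb by -0.37 ± 0.088 (adjusted p of 0.0256) and Ttn ILMN_1234729, near background, by -0.19 ± 0.05 (adjusted p of 0.0416). Ttn ILMN_1228221 was higher in the Ts3Yah littermates, by 0.58 ± 0.14 (limma, adjusted p of 0.0217), with all 5 above all 6. Leaving out single mice ended 4 of the 6 calls. With each of the 11 mice left out in turn, Neb lost its call 5 times (without 37094, 37145, 34561, 34731 or 34925), ILMN_1228221 5 times (without 37094, 37075, 34731, 34923 or 34925), ILMN_1234729 9 times (all mice but 37040 and 37075) and Ldb3 ILMN_2713622 1 time (without 34723). The log2 differences of these probes then ran from -0.43 to -0.32, 0.51 to 0.65, -0.22 to -0.15 and -0.84 to -0.62 in the same order, while Ttn ILMN_1223811 and ILMN_1231542 kept their calls. The brightest Ttn probe differed by 0.18 ± 0.079 (adjusted p of 0.239). Summed signals of the 3 measured adipocyte markers ran from 386 to 1511 in these Ts3Yah littermates and from 707 to 4947 in the Ms3Yah littermates, with Adipoq detected on 23 arrays, Plin1 on 12 and Retn on 2, and their part in the differences was not tested.

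In other genes of the Z-disc, M-band and thin filament no call was made within a line either. Of a list of 47, 43 had an expressed probe, and 0 passed the test (adjusted p under 0.05, limma) in Ts3Yah or in Ms3Yah. At an unadjusted p under 0.05, no gene had a higher and 2 had a lower mean in Ts3Yah, while 1 was above and 3 were below the littermates in Ms3Yah. These are 2 and 4 of 43 genes, beside 6.42% and 6% of all genes, shares near the background. The median log2 change was -0.0014 in Ts3Yah and -0.052 in Ms3Yah, beside -0.0012 and -0.0014 over all genes. The smallest p in Ts3Yah belonged to Xirp2, an actin-binding protein of the Xin family, with mean signals of 7474 and 10293 and a log2 change of -0.47 ± 0.12 (limma, unadjusted p of 0.00243, adjusted p of 0.762). Next were Cfl2, the muscle cofilin, at -0.20 ± 0.073 (adjusted p of 0.853), Actc1, cardiac actin, at 0.76 ± 0.36 (adjusted p of 0.9) and Flnc, filamin C, at -0.20 ± 0.10 (adjusted p of 0.901), all from limma.

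In Ms3Yah the smallest p belonged to Cmya5, which binds alpha-actinin, with mean signals of 16008 and 18448 and a log2 change of -0.20 ± 0.057 (limma, unadjusted p of 0.00371, adjusted p of 0.783). Pdlim3, which also binds alpha-actinin, followed at -0.16 ± 0.058 (limma, adjusted p of 0.897), then Klhl40 at -0.26 ± 0.11 (adjusted p of 0.968) and Lmod3, which nucleates thin filaments, at 0.16 ± 0.07 (adjusted p of 0.968). Between the diploid littermates 3 of the 43 passed the test, against 3.28% of all genes, all higher in the Ts3Yah littermates. They were Synpo2, an actin-binding protein of the Z-disc, by 0.62 ± 0.10, Tmod1, which caps thin filaments, by 0.44 ± 0.10, and Cfl2 by 0.33 ± 0.088 on the log2 scale.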

How the data were processed

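The authors had hybridised total RNA of gastrocnemius muscle to Illumina MouseWG-6 v2.0 arrays, 1 per mouse, and had set aside 1 further diploid mouse of the Ts3Yah line. The deposited signals are intensity values, not normalised between arrays, and beside each stands the authors' detection p-value; scanner software is not given in the sources used here. A second deposited table holds intensity values after background subtraction and quantile normalisation, used as an alternative; its values are linear, per array medians run from 3.81 to 3.85, and its method of subtraction stays unknown.

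Raw signals (medians of 84.7 to 101.5 per array, 16945 to 18669 probes detected at p under 0.05) were quantile normalised over 23 arrays and log2 transformed. Probes above the 35th percentile (89.7) on at least 1 array of a line were tested with limma 3.58.1 in R 4.3.3, each line apart, and p-values were adjusted by Benjamini-Hochberg. The difference between the lines and the diploid littermates were tested in a fit of 4 groups. Probe names came from the platform annotation: 34885 probes carry 1 gene, 18 several and 10378 none. The members and lists were chosen with earlier results of these data known. Values per mouse are given for each member's brightest probe and for probes with an unadjusted p under 0.05; other list genes are the 4 with the smallest p per line. Nothing says that mice came from separate litters, so p-values measure the spread between mice. Scripts were tested on simulated data. Alternatives were neqc, median scaling, the second table, other filters, an Xist term, 1 fit of 4 groups, the methods' t-test and leaving out each mouse.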

Additional observations from a re-analysis of the deposited data

Results flagged for a closer look

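Of 60 combinations of a probe and a group, 1 held a mouse that stood far from the others, where chance alone gives about 1 in 20 groups. It was the brightest Actn3 probe in the Ms3Yah diploid group, where mouse 37094 had a signal of 33419 and the next lowest mouse 37207, a gap of 0.651 of the range of the group. The same mouse was the highest of its group in Ankrd2, at 2502.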

How the results depend on the processing

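No paired analysis was possible because the labels number mice by identifier, and no identifier occurs in more than 1 group. No member probe had an adjusted p under 0.05 in either line or in the difference between the lines, and no probe pair did, under any alternative run or with any mouse left out. At an unadjusted p under 0.05 the count in Ts3Yah was 6, and it was 3 with the second deposited table, 3 with the methods' t-test and 3 without the 3 Ttn probes that vary together. With the brightest probe of each gene it was 1 in Ts3Yah, 1 in Ms3Yah, 1 in the difference between the lines and 4 between the diploid littermates. The counts without these Ttn probes and with the brightest probes, and the alternatives for the slopes on Xist, were chosen after seeing the data. Leaving out a mouse gave 3 to 6 in Ts3Yah (3 without 34498 or 34662), 2 to 6 in Ms3Yah (6 without the diploid mouse 37094, 5 without 37074 or the diploid 37075, 4 without the diploid 37145), 3 to 5 in the difference (5 without the diploid 37040 or 34923) and 12 to 15 between the diploid littermates. Between the diploid littermates 6 probes passed the adjusted threshold, 2 with median scaling, 9 with the filter on detection, 1 with the brightest probes alone, and 3 to 7 with a mouse left out (3 without 37094 or 34925). Ttn ILMN_1223811 and ILMN_1231542 kept this call in every fit that included them, while Neb, Ldb3 ILMN_2713622, Ttn ILMN_1228221 and ILMN_1234729 lost it with median scaling. Signs turned for small changes. Myoz1 in Ts3Yah was 0.059 with Xist in the fit, and Myoz2 in Ms3Yah -0.0014 with median scaling. With a mouse left out, brightest probes ran from -0.038 to 0.046 (Actn3) and -0.10 to 0.00091 (Myoz1) in Ts3Yah, and from -0.087 to 0.25 (Myoz2), -0.011 to 0.10 (Ttn), -0.013 to 0.042 (Actn3) and -0.15 to 0.21 (Ankrd2) in Ms3Yah. The slope of Myoz1 on Xist lost its call with median scaling (-0.028) and the second table (-0.025), and those of the 3 Ttn probes kept theirs. The cause of these shifts was not tested. Few arrays per group limit precision, and probes near background bound little.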
